A study of Homo sapiens with 6 samples.

Results

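VPS9D1-AS1 is the long non-coding RNA that the study calls MYU, and it was examined here with 4 protein-coding genes beside it on chromosome 16q24, VPS9D1, CDK10, CPNE7 and SPIRE2. The genes were taken by their symbol in the platform annotation. All 5 have a probe set, 1 each, among the 14812 genes that the annotation names. Expression had been measured on 6 Affymetrix arrays of the colorectal adenocarcinoma cell line LS180, which is of human origin. The cells had received an siRNA against MYU, an siRNA against CTNNB1, the gene of beta-catenin, or an siRNA against the transcription factor gene MYC, and each of these 3 knockdown arrays has 1 control siRNA array named for it. The labels give no dose, time or siRNA sequence, and the treatment tag of the CTNNB1 array reads CTNNB2 where its title and source name read CTNNB1.

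The authors deposited log2 values centred within each pair of arrays, so 1 number per gene and pair remains, knockdown minus control. Expression levels are gone, which means that the identity of the line could not be checked on the level of its markers. There is 1 array on each side, so no value has a replicate check, no p-value is given, and "higher" and "lower" describe these arrays only. As a yardstick, the central 95% of all genes lay between -1.26 and 1.06 for CTNNB1 siRNA, between -0.66 and 0.56 for MYC siRNA and between -0.46 and 0.40 for MYU siRNA. Probe sets of the same gene had a median standard deviation of 0.10, 0.08 and 0.06 in these pairs. That figure covers disagreement within a pair of arrays, not the spread between cultures.

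Beta-catenin is the nuclear effector of Wnt signalling, and in colorectal cancer cells it drives MYC among other genes. Long non-coding RNAs can act on genes at their own locus or on distant ones, and for an antisense RNA, transcribed from the strand opposite to a protein-coding gene, that gene is a usual first comparison. MYU has been described as a target of Wnt signalling and MYC, and has been tied to the G1 kinase CDK6 through the RNA-binding protein hnRNP K. The genes beside MYU serve other processes. VPS9D1 carries a VPS9 domain, the module by which proteins activate Rab5 GTPases on endosomes. CDK10 encodes a kinase that works with cyclin M and phosphorylates the transcription factor ETS2. CPNE7 encodes a copine, a calcium-dependent membrane-binding protein. SPIRE2 encodes an actin nucleator that acts with formins and myosin V motors in vesicle transport.

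The promoter windows of the lncRNA and of the gene it is named for are printed because the lncRNA stood lower than that gene in all 3 pairs of arrays. They come from RefSeq, assembly GRCh38.p14, which holds a window for 4 of the 5 genes. CPNE7 is the gene without one. The windows were searched on both strands for the E-box CACGTG, the core letters bound by MYC, and for the TCF motif of the Wnt effectors, which was spelled CTTTG followed by 2 letters that are each A or T. The lncRNA's window, chr16:89711606-89711905 on the plus strand, runs from 250 bases before its start to 50 after. For VPS9D1 the 250 bases before its start are shown, chr16:89720899-89721148 on the minus strand. Capitals mark the 1 motif found.
VPS9D1-AS1: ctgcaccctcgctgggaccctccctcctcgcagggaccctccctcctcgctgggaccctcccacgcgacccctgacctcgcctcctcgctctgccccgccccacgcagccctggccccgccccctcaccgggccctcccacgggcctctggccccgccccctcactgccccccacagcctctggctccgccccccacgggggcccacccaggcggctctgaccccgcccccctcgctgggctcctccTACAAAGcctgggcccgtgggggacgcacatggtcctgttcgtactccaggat
VPS9D1: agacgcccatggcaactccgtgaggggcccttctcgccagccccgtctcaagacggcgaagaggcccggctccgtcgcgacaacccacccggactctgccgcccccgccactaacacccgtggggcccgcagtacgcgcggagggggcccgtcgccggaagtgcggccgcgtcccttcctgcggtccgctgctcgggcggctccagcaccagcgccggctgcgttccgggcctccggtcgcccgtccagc

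The lncRNA's window held 1 TCF motif, which reads CTTTGTA on the minus strand and is therefore printed above in its complementary form. It begins 3 bases before the annotated start. Such a motif occurs in 13.8% of 35116 windows of this length. The full windows of VPS9D1, CDK10 and SPIRE2 held none, and the E-box, present in 7.26% of all windows, was found in none of the 4. These are matches of letters only, and say nothing about binding. The windows are rich in G and C, at 75.7% for the lncRNA, 76.7% for VPS9D1, 69% for CDK10 and 85% for SPIRE2. For SPIRE2 this exceeds 99.7% of all windows.

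The lncRNA itself came first, since it is the targeted transcript of the MYU pair. In that pair the centred log2 value of VPS9D1-AS1 was 0.25 in the control array and -0.25 in the knockdown array, a difference of -0.50, or 1.41-fold lower. Only 4 of the 1387 named lncRNA genes had a lower difference there. With CTNNB1 siRNA the centred values were 0.26 and -0.26, a difference of -0.53, or 1.44-fold lower. With MYC siRNA they were 0.12 and -0.12, a difference of -0.24, or 1.18-fold lower. The lncRNA was thus lower in the knockdown array of each pair, in none of them by 1.5-fold. The MYC transcript, by comparison, was at -2.38 with CTNNB1 siRNA, -1.18 with MYC siRNA and 0.04 with MYU siRNA. CTNNB1 has no probe set under its name, so the loss of the targeted transcript could not be read in the CTNNB1 pair.

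The size of a difference has to be read against its pair, since the 3 pairs spread unequally. The value of VPS9D1-AS1 in the MYU pair lay outside the central 95% of genes, with 1.96% of all genes below it. The nearly equal value in the CTNNB1 pair had 11.1% of genes below it, and the value in the MYC pair 13.6%. Among lncRNA genes 37 of 1387 were lower with CTNNB1 siRNA and 48 with MYC siRNA. Ranks among non-coding genes and among all genes are not alike. The 312 antisense RNAs taken up below spread less than the genes they are named for. Their standard deviations were 0.22 against 0.54 with CTNNB1 siRNA and 0.16 against 0.26 with MYC siRNA. Between the CTNNB1 and MYC pairs the lncRNA differed by -0.29, and between CTNNB1 and MYU by -0.03. The titles of the control arrays for CTNNB1 and MYC siRNA bear the same number. Whether both are 1 hybridisation could not be told from the values, so likeness between those pairs is no independent support. In bulk RNA, fewer cells that contain a transcript and less of it per cell cannot be told apart.

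VPS9D1, whose span encloses the whole lncRNA on the opposite strand, was never lower. Its differences were 0.09 with CTNNB1 siRNA, 0.24 with MYC siRNA and 0.08 with MYU siRNA. All 3 values lay inside the central 95% of genes, the one in the MYC pair with 10.9% of genes above it. The antisense RNA minus its sense gene gave -0.62 with CTNNB1 siRNA, -0.48 with MYC siRNA and -0.58 with MYU siRNA. On the log2 scale the lncRNA therefore stood lower than VPS9D1 by a similar amount in each pair, but the pairs spread unequally. The lncRNA is the targeted transcript in the MYU pair only. Which strand the probes read is not given in the sources used here.

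CDK10 was farthest from 0 in the MYU pair, though still inside the central 95% of genes. Its centred values there were 0.22 in the control and -0.22 in the knockdown array, a difference of -0.44, or 1.36-fold lower, with 2.78% of genes below it. CDK10 was at -0.18 with MYC siRNA and at 0.01 with CTNNB1 siRNA. The lncRNA minus CDK10 gave -0.06 for both MYC and MYU siRNA and -0.54 for CTNNB1 siRNA. Genes that serve as markers of other cells and of colon epithelium were uneven in this pair, though the labels name LS180 cells only. The measured leukocyte markers LYZ, CD68 and CD14 were at 0.74, 0.48 and 0.06, the fibroblast markers DCN, LUM and THY1 lay between -0.06 and 0.05, and of 5 colon epithelium markers KRT20 was at -0.73 while the others lay between -0.12 and 0.09. The part of these in the values of the lncRNA, CDK10 and CPNE7 was not tested. Whether a CDK10 difference of this size would return in a second MYU knockdown cannot be said from 1 array a side.

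CPNE7 was the only one of the 4 protein-coding genes that stood below 0 in all 3 pairs. Its centred values were 0.35 and -0.35 in the CTNNB1 pair, a difference of -0.70, and 0.36 and -0.36 in the MYC pair, a difference of -0.73. These are 1.63-fold and 1.65-fold lower. In the MYU pair it differed by -0.43, or 1.35-fold. CPNE7 passed 1.5-fold in the CTNNB1 pair, where 9.8% of all genes were that much lower, and in the MYC pair, where 3.63% were. Its rank was most extreme in the MYC pair, with 1.88% of genes below it, against 7.70% and 2.91% with CTNNB1 and MYU siRNA. Only in the MYC pair did it lie outside the central 95% of genes.

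SPIRE2 was the single member past 2-fold. In the CTNNB1 pair its centred values were -0.54 in the control and 0.54 in the knockdown array, a difference of 1.07, or 2.10-fold higher. In that pair 2.8% of all genes were at least 2-fold higher. With MYC siRNA the difference was -0.01, and with MYU siRNA 0.11. SPIRE2 thus had its high value in the CTNNB1 knockdown array, and the CTNNB1 minus MYC difference for it was 1.08. Genes that serve as markers of other cells were uneven in the same pair, though the labels name LS180 cells only. The fibroblast marker LUM was at 2.78 and the macrophage marker CD68 at 2.65, while DCN, THY1, CD14 and LYZ lay between -0.23 and 0.01. These are the 3 measured of 6 fibroblast and the 3 measured of 6 leukocyte markers, and their part in the SPIRE2 value was not tested.

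**Figure D1:**
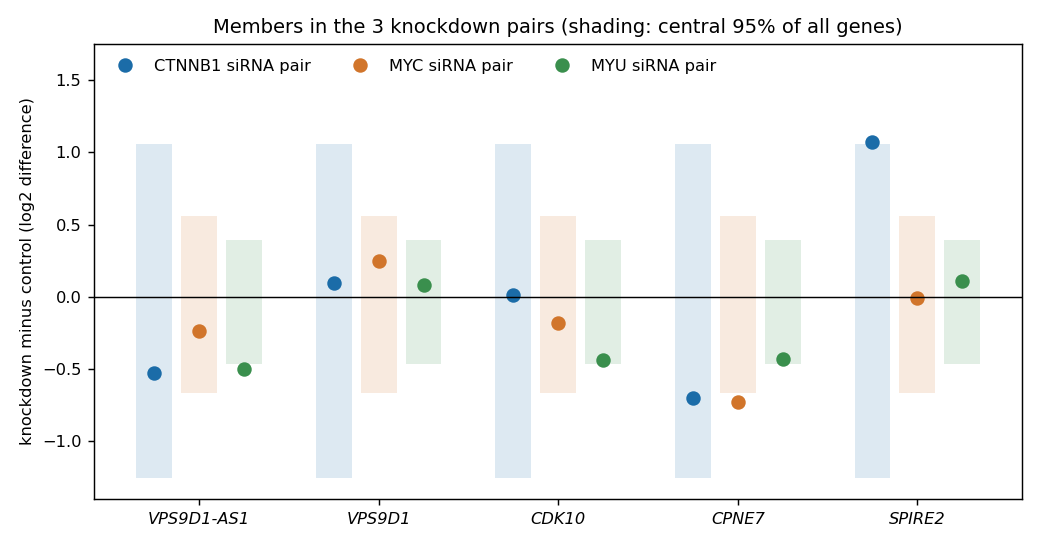
Log2 difference, knockdown minus control (vertical axis), of the 5 genes (horizontal axis) in the CTNNB1, MYC and MYU siRNA pairs, 1 point per pair of arrays; shaded bars span the central 95% of all 14812 genes in that pair. VPS9D1-AS1 lies below 0 in every pair and below the shaded range with MYU siRNA (-0.50), CPNE7 is lower in every pair and below the range with MYC siRNA (-0.73), and SPIRE2 lies just above the range with CTNNB1 siRNA (1.07).

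The wider locus was then followed, over 22 genes listed for this stretch of 16q24, of which 16 have a probe set under their name. The other 6 were not analysed here. In the order of the gene table, CDK10 lies 3 genes before the lncRNA, CPNE7 lies 9 before it and SPIRE2 lies 3 after it, with ZNF276 next to it. In the MYU pair the 3 lowest of the 16 genes were VPS9D1-AS1, CDK10 and CPNE7, followed by the zinc finger gene ZNF276 at -0.24. They do not form an unbroken run. SPATA2L, which lies between CDK10 and VPS9D1, was at -0.08, and CHMP1A, an ESCRT-III subunit gene between CPNE7 and CDK10, at 0.12.

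None of the 16 was 2-fold or 1.5-fold apart in the MYU pair, where 0.155% and 1.88% of all genes were. The median of the 16 was -0.02, against 0 over all genes. The 11 genes of the stretch other than the 5 above lay between -0.24 and 0.24, with the melanocortin receptor gene MC1R the highest, and 6 of the 11 were above 0. In the CTNNB1 pair SPIRE2 was the 1 gene of 16 at least 2-fold apart, against 6.94% of all genes, and 2 of the 16 were at least 1.5-fold apart, against 16.2%. The other 11 lay between -0.19 and 0.19. There ZNF276 was at 0.19, TCF25 at 0.17 and SPG7, a mitochondrial protease gene, at 0.16. In the MYC pair 0 of 16 were 2-fold apart, against 0.857% of all genes. In the same pair 2 were at least 1.5-fold lower, against 3.63% of all genes. The one besides CPNE7 was ANKRD11, a chromatin regulator gene, at -0.63.

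Some neighbours that lie side by side took opposite signs and others the same sign. With MYC siRNA CDK10 (-0.18) and SPATA2L (-0.25) were both below 0. In the same pair VPS9D1 was at 0.24 and ZNF276 at 0.37, while the lncRNA, listed between these, was at -0.24. SPG7 at 0.34 and DBNDD1 at 0.31 were higher in that pair too, and CHMP1A was at 0.23. DEF8, with 2 probe sets, lay between -0.10 and -0.04 in the 3 pairs. PRDM7 was at 0.11, 0.09 and 0.03 with CTNNB1, MYC and MYU siRNA. The gene listed as GAS8, now DRC4, had 0.09, 0 and -0.08.

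**Figure D2:**
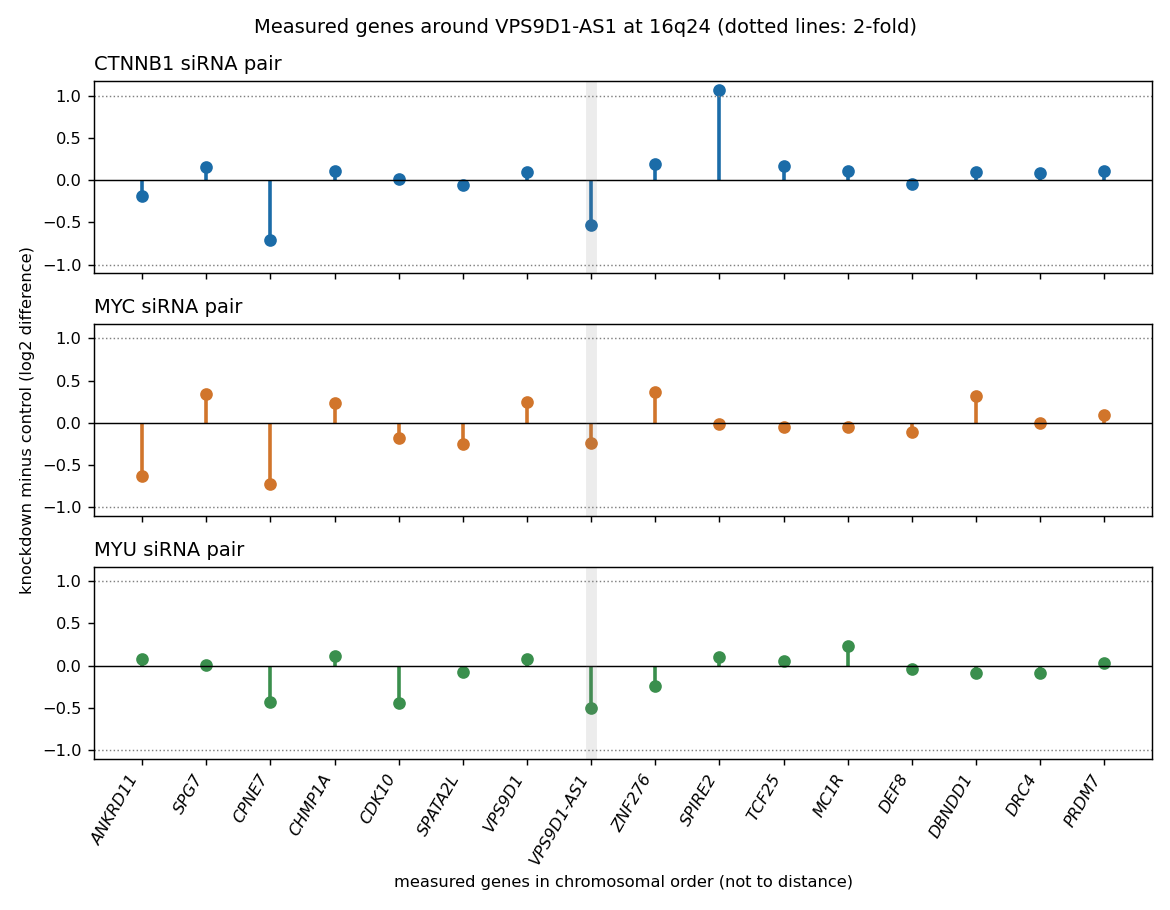
Log2 difference, knockdown minus control (vertical axes), of the 16 measured genes of the 16q24 list in chromosomal order (horizontal axis, not to distance), 1 panel per siRNA pair; dotted lines mark 2-fold and the grey band VPS9D1-AS1. With MYU siRNA the lncRNA (-0.50), CDK10 (-0.44) and CPNE7 (-0.43) are the lowest and are separated by genes near 0, and with CTNNB1 siRNA only SPIRE2 (1.07) crosses a dotted line.

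VPS9D1-AS1 was next set beside other antisense RNAs. The annotation names 312 antisense RNAs together with the gene each is named for. In the MYU pair VPS9D1-AS1 had the lowest value of the 312, ahead of WAC-AS1 at -0.46 and MNX1-AS1 at -0.41. It is the targeted transcript there, so a low rank in that pair follows from the design. With CTNNB1 siRNA it ranked 11 from the lowest and with MYC siRNA 12. Its difference from its sense gene ranked 4 from the lowest with MYU siRNA, 12 with MYC siRNA and 26 with CTNNB1 siRNA. The median size of the gap between antisense and sense was 0.10, 0.15 and 0.18 in these pairs.

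The signs of the lncRNA and VPS9D1, antisense below 0 and sense above, were shared by 43 of 312 antisense and sense genes with MYU siRNA, 76 with MYC siRNA and 63 with CTNNB1 siRNA. The reverse signs were found in 73, 78 and 78 of the 312 in the same order. In the 3 largest gaps of every pair it was the sense gene that lay farther from 0. Sense genes also spread more than antisense RNAs in every pair, with standard deviations of 0.20 against 0.12 with MYU siRNA. With MYU siRNA these were MAP3K20-AS1 at -0.03 against MAP3K20 at -1.15, KDM4A-AS1 at -0.11 against KDM4A at 0.77, and TMEM147-AS1 at 0.03 against TMEM147 at -0.73. With CTNNB1 siRNA, FER1L6-AS1 was at 0.15 and FER1L6 at 4.48, PCNA-AS1 at -0.09 and PCNA at -2.40, and SPAG5-AS1 at 0.21 and SPAG5 at -1.82. With MYC siRNA, CFAP44-AS1 was at -0.05 and CFAP44 at 0.97, THUMPD3-AS1 at 0.38 and THUMPD3 at -0.55, and RNF213-AS1 at 0.08 and RNF213 at -0.83. For VPS9D1-AS1 the larger part of the gap lay in the antisense RNA in the CTNNB1 and MYU pairs, while in the MYC pair the sizes were nearly equal (-0.24 and 0.24). This was not particular to VPS9D1-AS1. Larger gaps of that kind were those of PRRT3-AS1 (-1.37, PRRT3 0.06) with CTNNB1 siRNA and FOXD2-AS1 (0.46, FOXD2 -0.16) with MYU siRNA.

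**Figure D3:**
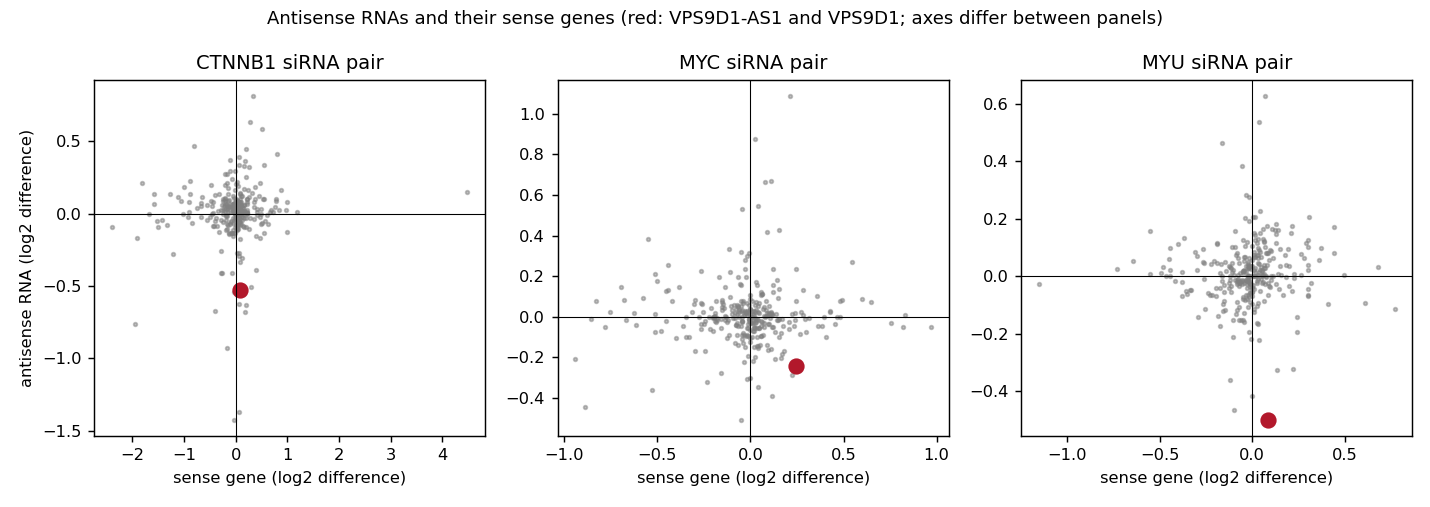
Log2 difference of 312 antisense RNAs (vertical axes) against the log2 difference of the gene each is named for (horizontal axes), 1 panel per siRNA pair with its own scales; the red point is VPS9D1-AS1 with VPS9D1. With MYU siRNA, which targets this RNA, the red point is the lowest of all (-0.50) at a sense value of 0.08.

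The families of the 4 protein-coding genes were taken up in turn, to set each beside genes of like function. Of 9 measured VPS9 domain genes, VPS9D1 stood at the family median of 0.09 with CTNNB1 siRNA and above the medians of 0 and -0.03 with MYC and MYU siRNA. RIN2, a Rab5 activator, was the 1 family member of 9 past 2-fold, at 1.47 with CTNNB1 siRNA, where 6.94% of all genes were 2-fold apart. In the MYC and MYU pairs 0 of the 9 were, against 0.857% and 0.155% of all genes. GAPVD1, which acts in endocytosis, was at -0.69 with MYC siRNA and ALS2CL at 0.53 with CTNNB1 siRNA. With MYU siRNA RABGEF1 was the lowest of the family at -0.36.

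CDK10 was compared with the other cyclin-dependent kinases and with ETS2. With CTNNB1 siRNA 4 of the 20 genes measured were lower by 2-fold or more, as were 4.14% of all genes, and 0 were 2-fold higher. The list median was -0.21. The 2-fold lower genes were the cell cycle kinases CDK1 (-1.96), CDK4 (-1.88), CDK2 (-1.55) and CDK6 (-1.12), so CDK10 at 0.01 was not among them. With MYU siRNA CDK6 at -1.17 was the 1 gene of 20 past 2-fold, against 0.155% of all genes, and CDK10 at -0.44 was the next lowest of the 20, ahead of CDK2 at -0.39. CDK7, the kinase of TFIIH, was the highest there at 0.68. With MYC siRNA CDK6 was at -0.91 and 0 of the 20 were 2-fold apart, against 0.857% of all genes. ETS2, a substrate of CDK10, was at -0.73, -0.40 and 0.17 with CTNNB1, MYC and MYU siRNA. The gene of cyclin M was not analysed here. HNRNPK was at -0.50, -0.11 and -0.13.

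CPNE7 was the lowest of the 8 measured copines in every pair. The other 7 lay between -0.30 and 0.32 with CTNNB1 siRNA, between -0.07 and 0.15 with MYC siRNA and between -0.20 and 0.05 with MYU siRNA. CPNE3 was at -0.30 with CTNNB1 siRNA and -0.20 with MYU siRNA, and CPNE9 at 0.32 with CTNNB1 siRNA. The medians of the 8 were 0.04, 0.01 and 0.01, and 0 were 2-fold apart in any pair, against 6.94%, 0.857% and 0.155% of all genes.

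SPIRE2 had company among its listed partners. Of 6 measured actin nucleators, formins and myosin V genes, SPIRE2 included, 2 were at least 2-fold higher with CTNNB1 siRNA, against 2.8% of all genes. At least 1.5-fold higher were 4 of the 6, against 6.44% of all genes. Besides SPIRE2 the 4 were the motor gene MYO5B (1.02), the SPIRE2 paralogue SPIRE1 (0.78) and MYO5C (0.73). The list median was 0.75 against 0 for all genes. The formin genes FMN1 and FMN2 were at 0.27 and -0.05. With MYC siRNA SPIRE1 was at 0.42 and MYO5B at -0.02, and 0 of the 6 were 1.5-fold apart, against 5.79% of all genes. With MYU siRNA SPIRE2 was the only one of the 6 above 0, and MYO5C was the lowest at -0.49. Of 5 measured colon epithelium markers, 4 were 1.5-fold higher in the CTNNB1 pair too, namely KRT20 (4.39), CEACAM5 (1.11), VIL1 (1.06) and EPCAM (0.62), and CDX2 was at -0.42. Whether this has a part in the SPIRE2 list was not tested.

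**Figure D4:**
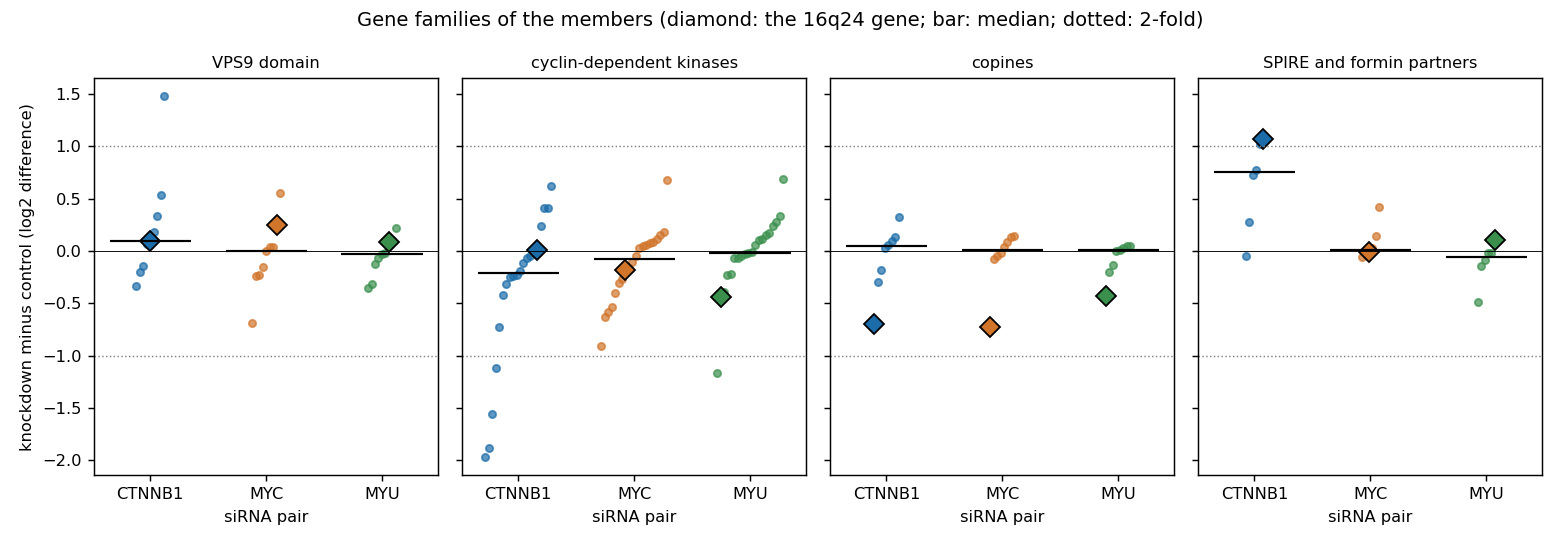
Log2 difference, knockdown minus control (vertical axis), of the measured genes of 4 lists in the CTNNB1, MYC and MYU siRNA pairs (horizontal axes); diamonds are the 16q24 genes VPS9D1, CDK10, CPNE7 and SPIRE2, circles the other genes, horizontal bars the list medians and dotted lines 2-fold. CPNE7 is the lowest copine in every pair, and SPIRE2 is the highest of its list with CTNNB1 siRNA (1.07).

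The genes most like each member were found by the Euclidean distance over the 3 log2 differences, a description over 3 pairs that says nothing of shared function. For every member, uncharacterised symbols were passed over when the nearest genes were named, but kept in the counts and shares. Nearest to VPS9D1-AS1 were OSGIN2 (distance 0.07), XYLB (0.08), INTS8 (0.09), RBFA (0.11) and ALMS1 (0.12). OSGIN2, for example, was at -0.46, -0.26 and -0.49 with CTNNB1, MYC and MYU siRNA. Within a distance of 0.2 of the lncRNA lay 43 genes, and none of the 4 neighbours was among them. CPNE7 lay at 0.52, CDK10 at 0.55, VPS9D1 at 0.98 and SPIRE2 at 1.72. Of all genes 7.07%, 8.47%, 77.8% and 96.6% lay at these distances or nearer. HTRA2 and ERI2 were nearest to CPNE7, which had 10 genes within 0.2. TOP1 and CNOT11 were nearest to CDK10, which had 58. SCAMP2 and STAM2 were nearest to SPIRE2, which had 25. VPS9D1, with values close to those of most genes, had 1166, and the nearest 2 named in this way were CCDC190 and PROC.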

How the data were processed

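RNA of 6 LS180 samples was prepared with TRIsure, biotin-labelled and hybridised by the Affymetrix procedure, per the labels' protocols. How the probe signals were corrected, normalized and summarised is not given in the sources used here. Deposited log2 values were centred by the authors within each pair, as the values of a pair sum to 0 within 1e-06. The log base of 2 is assumed.

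The difference, knockdown minus control, was taken per probe set. Of 44629 probe sets, 15835 have 1 gene symbol, 0 several and 28794 none. All 15835 matched the gene table of GRCh38.p14 and gave 14812 genes, averaging the probe sets of a gene. With 1 array a side and centred values no test was possible, so genes were counted at 2-fold, or 1.5-fold as an alternative. The number of arrays limits the precision. Members and lists were chosen with earlier results of these data known. Named were all members and 16q24 genes, up to 3 genes per family with the largest differences (others where a sentence needed them), the nearest genes by distance, and the antisense RNAs with the largest gaps. WAC-AS1, MNX1-AS1, CDK7 and other genes outside this rule were chosen after their values were seen. Alternatives were median centring, other probe set choices, a gene length trend (running median of 501 protein-coding genes) and protein-coding genes only. The code was tested on simulated data. Python 3.11.15, numpy 2.4.6, pandas 2.3.3 and matplotlib 3.10.9 were used.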

Additional observations from a re-analysis of the deposited data

How the results depend on the processing

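The 15 differences of the 5 genes moved by at most 0.06 when the gene length trend was removed, less than the median standard deviation between probe sets of a gene in the same pair. Other probe set choices could not move them, since each gene has 1 probe set, and median centring could act only in the CTNNB1 pair, as the medians of the MYC and MYU pairs are 0. With the length trend removed, VPS9D1-AS1 was at -0.53, CDK10 at -0.47 and CPNE7 at -0.43 in the MYU pair, and SPIRE2 in the MYC pair changed sign at a value of 0.004. At 1.5-fold in place of 2-fold, where more genes pass by construction, the counts of genes apart became 2 of the 16q24 list with CTNNB1 siRNA and 2 with MYC siRNA, 1 VPS9 domain gene with MYC siRNA, 3 cyclin-dependent kinases with MYC siRNA and 2 with MYU siRNA, 1 copine with CTNNB1 siRNA and 1 with MYC siRNA, and 4 SPIRE and formin partners with CTNNB1 siRNA. The list of cyclin-dependent kinases and ETS2 went from 4 to 6 genes apart with CTNNB1 siRNA, as CDK19 (0.62) and ETS2 (-0.73) were added. Of all genes 16.2%, 5.79% and 1.88% were 1.5-fold apart with CTNNB1, MYC and MYU siRNA. Dividing each pair by its standard deviation left 3 of the 5 genes nearest to VPS9D1-AS1 among the nearest 5. An alternative chosen after seeing the data kept the 111 antisense RNAs that lie wholly inside their sense gene. Among these VPS9D1-AS1 was again the lowest in the MYU pair, where it is the siRNA target. Its gap to VPS9D1 ranked 9, 5 and 2 with CTNNB1, MYC and MYU siRNA. No paired analysis was possible because each group holds 1 array and the deposited values are already differences within a pair. Leaving out an array was not possible for the same reason. Signal over background could not be assessed without levels.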
